A study of Danio rerio with 8 samples.

Results

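The genes that encode collagen and laminin chains were examined in hearts of zfpm1 mutant and control zebrafish (Danio rerio). They were taken as every gene whose name starts with col or lam in the pattern of a collagen alpha chain or a laminin alpha, beta or gamma chain, with at least 10 counts summed over the 6 heart libraries. This gave 65 of the 31953 gene IDs in the count files, from 70 IDs with such a name. By type they were 15 chains of fibrillar collagens, 19 chains of the basement membrane (collagen type 4 and the laminins) and 31 chains of other collagens. The hearts came from fish of the TU strain at 21 days post fertilisation (dpf), 3 libraries from zfpm1 mutants and 3 from controls. The labels give neither the mutant allele nor whether a library came from 1 animal or a pool, so p-values speak of the spread among the 3 libraries of a group, part of which may be technical. The study asked which genes act downstream of zfpm1, which encodes a FOG family cofactor of GATA transcription factors.

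Collagens are trimers of alpha chains wound into a triple helix. Fibrillar collagens assemble into the cross-linked fibrils that carry tension in valves, vessel walls and the tissue between heart muscle cells, and fibril-associated collagens sit on the surface of those fibrils. Collagen type 4 and the laminins, which are trimers of an alpha, a beta and a gamma chain, build the basement membrane that lies under endothelium and epithelia and around each heart muscle cell. The chains a cell makes set which trimers it can assemble, so tissues differ in the chains they express. In the heart, fibroblasts, epicardium, endothelium and heart muscle cells all contribute to these layers.

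The heart libraries held 7614329 to 9909966 gene counts, with 42.4% to 48.8% of each file's total in no annotated feature. Expression is given below in CPM, the count scaled to the library's TMM-adjusted total. It is not corrected for gene length, so a gene is compared with itself between hearts. The zfpm1 transcript (ZFPM1, ENSDARG00000041572) had 558, 471 and 956 counts in mutant and 419, 344 and 423 counts in control hearts. Its log2 fold change was 0.50 (SE 0.23, edgeR adjusted p 0.241), and this level is no check of the genotype labels, since many mutations leave the transcript in place. The totals of all lines were identical, at 19276348, in mutant heart replicate 1 and in the file labelled control embryo at 36 hours post fertilisation, and, at 22649056, in control heart replicate 1 and the file labelled mutant embryo. The labels of each pair differ in tissue and genotype, so the embryo-labelled files entered no comparison of mutants with controls. They were only set against the heart library of the same total, under the other observations. Results are given with all 6 hearts and, where a call is lost or a called fold moves by over 1.5 times, without both libraries numbered 1.

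Most collagen and laminin chains did not pass the test between mutant and control hearts, and those that passed were mainly higher in mutants. Of the 65 genes 56 had enough counts to be tested. Of these, 10 rose and 1 fell at an edgeR adjusted p under 0.05. Over all 16707 genes tested, 9.43% were called, 7.02% higher and 2.42% lower, against 19.6% of the collagen and laminin genes. Mutant and control libraries were fully apart in 17 of the 56 genes, or 30.4%, where the share over all genes was 29.7%. The median log2 fold change of the 56 genes was 0.38, against -0.01 over all genes tested. The genes that rose were col5a3a and col11a1b among fibrillar chains, lamb2l, lama3, col4a5 and col4a6 in the basement membrane, and COL8A1, COL8A2 and both IDs carrying the symbol COL12A1 among the others. The gene that fell was col18a1b. COL8A1, lama3, COL8A2, col5a3a and lamb2l, with 2, 2, 23, 24 and 26 counts over the control hearts, needed the mutant libraries to pass the count filter. COL8A1 and lama3 also reached the minimum of 10 counts through those libraries. The 19.6% includes these genes. All genes tested went through the same count filter.

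The calls are counted here by mean level over the 6 hearts. This is a description only, since the means and the calls share the mutant values. Of the 18 tested genes with a mean of at least 100 CPM over the 6 hearts 1 was called, and their log2 fold changes ran from -0.48 to 1.75. Of 11 genes with a mean from 10 to under 100 CPM 7 were called, and of 27 genes with a mean under 10 CPM 3 were called. These means include the mutant libraries, so a gene high in mutants can enter the middle range through them. COL8A1, lamb2l and col11a1b did so. Their control means were 0.0815, 1.08 and 7.93 CPM, while the mutant libraries averaged 22.8, 22.2 and 31.2 CPM. The called gene of the highest range, COL12A1 (ENSDARG00000078322), averaged 322 CPM over the mutants and 95.5 CPM over the controls. It thus entered that range through the mutant libraries as well. The ranges were not compared with all genes of the same level. In 9 of the 10 genes that rose, mutant replicate 1 was the highest mutant library. Among all 1172 genes that rose this held for 62.9%. Without both libraries numbered 1, 7 of 57 tested genes rose and none fell by edgeR, where 7.42% of all genes were called, and the median of the collagen and laminin genes was 0.16. At an unadjusted p under 0.05 with all 6 hearts there were 15 of the 56 genes, against 23.6% of all genes. Leaving out control replicate 1, 2 or 3 left 4 genes higher in each case, of 60, 60 and 59 tested. Over all genes 6.06%, 5.9% and 3.46% were then called in either direction. Leaving out mutant replicate 1, 2 or 3 left 8, 10 and 10 genes higher, of 57, 58 and 58 tested. There 6.41%, 6.71% and 7.48% of all genes were called.

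**Figure D1:**
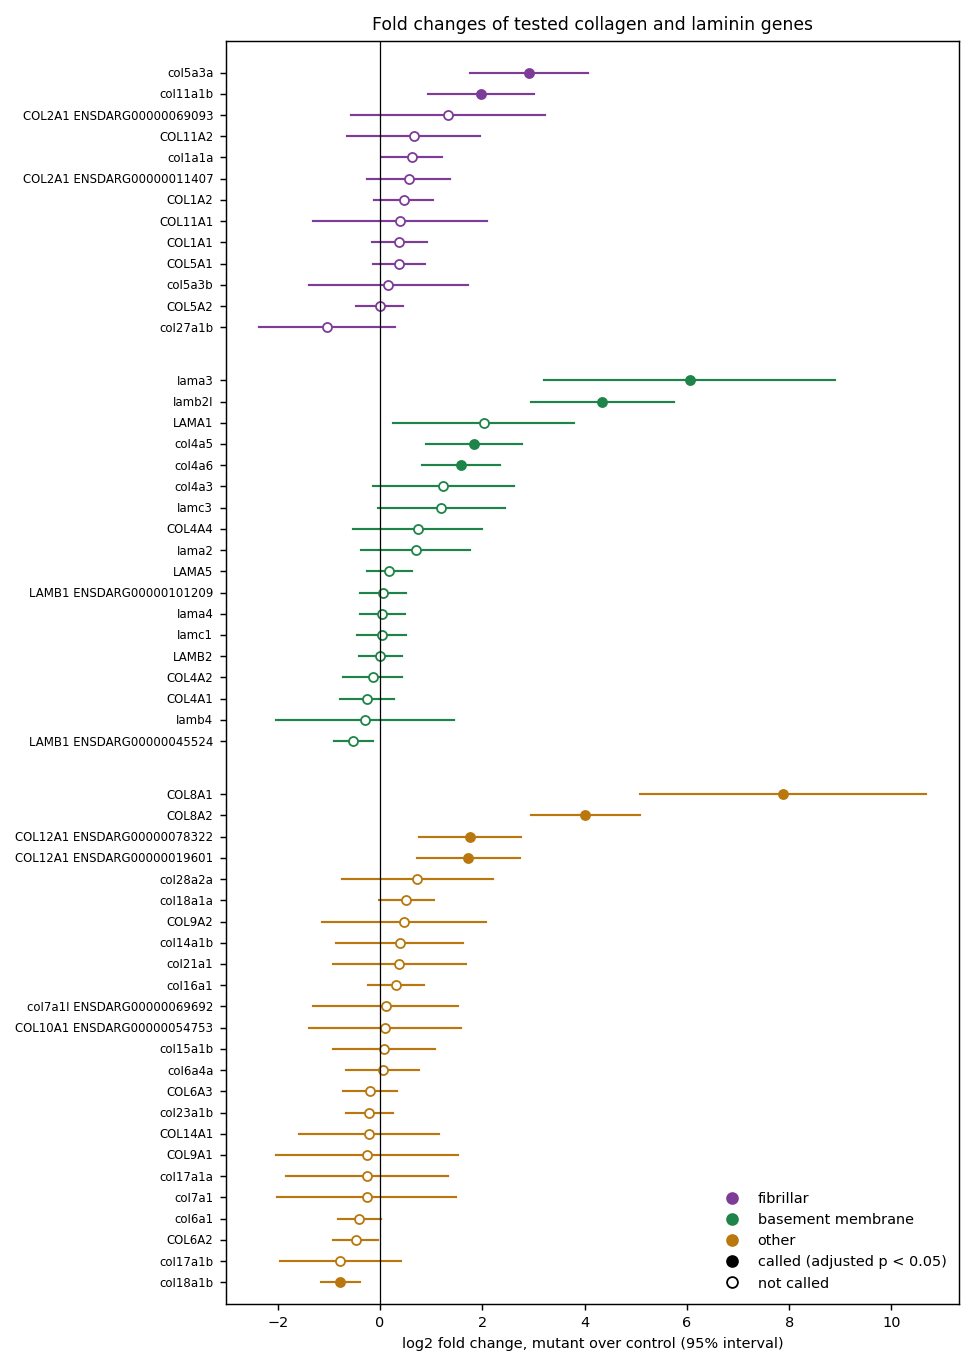
Log2 fold change of mutant over control hearts (x axis) for 55 of the 56 tested collagen and laminin genes, grouped as fibrillar, basement membrane and other, with 95% intervals as lines. Filled points are the 11 called genes, and COL8A1 and lama3 lie farthest to the right with the widest intervals among them.

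Summed markers of some other cell types lay fully apart between mutant and control libraries, and those of others overlapped. Over all genes tested, 9.43% were called by edgeR and 13.5% by DESeq2. Of the same genes 23.6% had an unadjusted p under 0.05, and 29.7% were fully apart between the groups. Transcripts known from liver summed to 5043 to 7009 CPM in mutant and 436 to 524 CPM in control hearts, with 16 of 18 tested members higher and 1 lower. Gut epithelium genes, a list added after the data had been seen, summed to 44.9 to 164 CPM in mutant and 8.14 to 8.93 CPM in control hearts. Of that list 3 of 5 tested members rose, against 1 without control replicate 3, and 5 after removal of mutant replicate 1 or of both libraries numbered 1, where more members could be tested. HNF4A and FABP6, 2 of its 13 genes, were at 0 in all control hearts. Myeloid markers summed to 977 to 1317 CPM in mutant and 221 to 356 CPM in control hearts and rose in 14 of 15 (9 without control replicate 3). Red cell markers summed to 125 to 491 CPM in mutant and 31629.9 to 56525 CPM in control hearts. Of these 14 of 15 fell (11 without mutant replicate 2 or without control replicate 3). The globin gene hbaa2, too scarce to test, was at 0 in all mutant hearts. Fibroblast and epicardium markers summed to 640.1 to 903 CPM in mutant and 569 to 752 CPM in control hearts, with 0 of 8 called by edgeR, 3 at an unadjusted p under 0.05 and 1 by DESeq2. Log2 fold changes were positive in 5 and negative in 3, and 4 of the 8 were fully apart, all higher in mutants. Endothelial markers summed to 925 to 1140.0 CPM in mutant and 1115 to 1563 CPM in control hearts, with 0 of 9 called by edgeR, 2 at an unadjusted p under 0.05 and 1 by DESeq2. All 9 log2 fold changes were negative, and 2 of the 9 were fully apart. Heart muscle markers summed to 19629 to 32589.9 CPM in mutant and 41184 to 49914 CPM in control hearts. By edgeR 0 of those 10 were called, with 1 at an unadjusted p under 0.05 and 3 by DESeq2. All 10 log2 fold changes were negative, and 6 of the 10 were fully apart. Cartilage markers summed to 247 to 331 CPM in mutant and 273 to 373 CPM in control hearts, with 0 of 12 called by edgeR or DESeq2 and 2 at an unadjusted p under 0.05. Epidermis markers summed to 732 to 1653 CPM in mutant and 437 to 2133 CPM in control hearts, with 0 of 14 called by either tool and 1 at an unadjusted p under 0.05. Smooth muscle markers summed to 682 to 1149 CPM in mutant and 590.0 to 664 CPM in control hearts and had 2 of 8 higher and 1 lower, and 1 higher without mutant replicate 3 or any 1 control. The lower marker and 1 of the higher markers were IDs with the same symbol, CNN1. Their log2 fold changes were -1.94 (ENSDARG00000102398) and 8.77 (ENSDARG00000017193). The other higher marker was acta2, at 1.18 (edgeR adjusted p 0.0460). Neural markers summed to 49.6 to 101.05 CPM in mutant and 74.7 to 92.2 CPM in control hearts and had 1 of 7 lower and 0 without control replicate 1. Skeletal muscle markers summed to 1103 to 1953 CPM in mutant and 2423 to 3365 CPM in control hearts. Of 12 skeletal muscle markers edgeR called 0, with 4 at an unadjusted p under 0.05, and DESeq2 called 2. Their log2 fold changes were negative in 11 and positive in 1, and 3 were fully apart. Bone markers summed to 4.28 to 12.3 CPM in mutant and 6.97 to 7.52 CPM in control hearts. Of 2 tested bone markers neither tool called any, and 1 was at an unadjusted p under 0.05. No other gene of these marker lists was at 0 in all libraries of a group. The part of other cells in the results below was not tested. In such bulk samples, fewer cells of a type and less RNA per cell cannot be told apart.

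Among the fibrillar chains, 2 minor chains rose and the main chains of types 1 and 5 did not pass the test. Of 13 tested genes 2 rose and 0 fell by edgeR and by DESeq2, with 3 at an unadjusted p under 0.05. By edgeR 15.4% were called, against 9.43% of all genes tested. Over all genes 23.6% had an unadjusted p under 0.05, near the share of the 13. The median log2 fold change of the 13 genes was 0.47, and 0.24 without both libraries numbered 1. The sum over all 15 fibrillar genes was 3039, 2101 and 2628 CPM in mutant replicates 1 to 3, against 1667, 2312 and 1895 CPM in control replicates 1 to 3. The groups overlapped in that sum, with control replicate 2 above mutant replicate 2.

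The gene col5a3a (ENSDARG00000098294) encodes a type 5 chain, one of the collagens that join type 1 fibrils and limit their width. It had 6.04, 8.78 and 7.99 CPM in mutant replicates 1 to 3, against 0.734, 0.493 and 1.77 CPM in control replicates 1 to 3. All mutant hearts lay above all control hearts, and mutant replicate 1 was the lowest of the mutants. The mean was 7.61 ± 1.41 CPM in mutant and 0.998 ± 0.676 CPM in control hearts (SD, n = 3 each), with a log2 fold change of 2.92 (SE 0.51, 95% interval 1.76 to 4.07, edgeR adjusted p 0.00896). It was 2.89 without both libraries numbered 1, and the call held when any 1 library was left out. The paralog col5a3b had 1.68, 5.18 and 4.82 CPM in mutant and 0.734, 5.30 and 4.41 CPM in control hearts. Those groups overlapped, and the log2 fold change of col5a3b had a 95% interval of -1.39 to 1.71.

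The gene col11a1b (ENSDARG00000009014) encodes a type 11 chain, a fibril-forming collagen best known from cartilage. It had 54.2, 12.8 and 26.7 CPM in mutant replicates 1 to 3, against 7.95, 7.65 and 8.20 CPM in control replicates 1 to 3. The control hearts were close to each other, and the mutants spread over a wide range above them. The mean was 31.2 ± 21.0 CPM in mutant and 7.93 ± 0.277 CPM in control hearts, with a log2 fold change of 1.97 (SE 0.46, 95% interval 0.94 to 3.01, adjusted p 0.0291). The size was 1.33 without mutant replicate 1, where the adjusted p was 0.0522, and 1.33 without both libraries numbered 1 (adjusted p 0.0615). Leaving out any 1 control also ended the call, with adjusted p up to 0.117. Its relative COL11A1 had 4.70, 6.42 and 12.7 CPM in mutant and 0.612, 10.6 and 7.06 CPM in control hearts, and COL11A2 had 1.01, 1.58 and 1.93 CPM in mutant and 0.489, 1.11 and 1.26 CPM in control hearts. Both overlapped between the groups. The type 2 chains of cartilage, under 2 IDs with the symbol COL2A1, stood at 14.2, 12.4 and 26.2 CPM (ENSDARG00000011407) and 2.80, 2.25 and 21.0 CPM (ENSDARG00000069093) in mutant hearts. In control hearts they stood at 8.32, 16.5 and 11.1 CPM and 1.71, 5.55 and 3.15 CPM. Mutant replicate 3 was the highest library for both, and neither passed (adjusted p 0.399 and 0.387).

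The type 1 chains, which make up the bulk of fibrils in most tissues, were not called. col1a1a had 951, 600.3 and 715 CPM in mutant replicates 1 to 3, against 389, 591 and 497 CPM in control replicates 1 to 3. Every mutant heart was above every control heart, though mutant replicate 2 and control replicate 2 were close. Its log2 fold change was 0.62 (SE 0.26, 95% interval 0.03 to 1.21, adjusted p 0.192), the smallest adjusted p among fibrillar genes that were not called, where col11a1b had the largest among those called. COL1A2, the partner chain in the type 1 trimer, had 639.5, 443 and 559.9 CPM in mutant and 308, 511 and 369 CPM in control hearts, with a log2 fold change of 0.47 (95% interval -0.11 to 1.04). COL1A1, a further type 1 chain, had 514, 444 and 545 CPM in mutant and 308, 498 and 349 CPM in control hearts, with 0.38 (95% interval -0.16 to 0.92). Without both libraries numbered 1 the log2 fold changes were 0.29, 0.21 and 0.24 for col1a1a, COL1A2 and COL1A1. In counts per 100 counts of col1a1a, COL1A2 had 67.2, 73.8 and 78.4 in mutant replicates 1 to 3, against 79.2, 86.6 and 74.1 in control replicates 1 to 3, with overlap and an exact permutation p of 0.2 (adjusted 0.23). The type 5 chains COL5A1 and COL5A2 had log2 fold changes of 0.37 (95% interval -0.14 to 0.89) and -0.01 (95% interval -0.47 to 0.45). COL5A2 stood at 424 ± 67.1 CPM in mutant and 427 ± 16.7 CPM in control hearts. The type 27 gene col27a1b had 6.49, 1.46 and 2.41 CPM in mutant and 11.01, 4.32 and 5.93 CPM in control hearts (adjusted p 0.329), with overlap. The other 2 fibrillar genes, col5a2b and col24a1, held 46 and 50 counts over all 6 hearts and were not tested.

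In the basement membrane, the widely used chains did not pass the test, and 4 other chains rose. Of 19 tested genes 4 rose and 0 fell by edgeR and by DESeq2, with 6 at an unadjusted p under 0.05. Against 9.43% called and 23.6% at such an unadjusted p over all genes tested, edgeR called 21.1% of the 19. Without control replicate 1, 2 or 3, 1 of the 19 rose in each case, where 6.06%, 5.9% and 3.46% of all genes were called. Without both libraries numbered 1, 3 of the 19 rose, where 7.42% of all genes were called. The summed level of the 19 genes was 2711, 2280.1 and 2888 CPM in mutant replicates 1 to 3, against 2884, 2282 and 2613 CPM in control replicates 1 to 3. The ranges of the groups were nearly the same. The median log2 fold change was 0.70, and 0.18 without both libraries numbered 1.

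COL4A1 and COL4A2 encode the chains of the type 4 network found in almost all basement membranes. COL4A1 had 468, 436 and 522 CPM in mutant replicates 1 to 3, against 715, 439.6 and 548 CPM in control replicates 1 to 3. The mutant hearts fell within a narrow range and control replicate 1 was the highest library. Its log2 fold change was -0.26 (SE 0.24, 95% interval -0.79 to 0.28), and that of COL4A2 -0.15 (95% interval -0.72 to 0.42), and neither passed.

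The chains encoded by col4a5 and col4a6 form networks of more restricted distribution. col4a5 (ENSDARG00000052063) had 96.3, 35.3 and 36.7 CPM in mutant replicates 1 to 3, against 11.5, 15.7 and 20.1 CPM in control replicates 1 to 3. col4a6 (ENSDARG00000052061) had 54.0, 21.4 and 31.0 CPM in mutant and 12.1, 10.2 and 13.2 CPM in control hearts. For both genes the groups did not overlap, and mutant replicate 1 stood well above the other mutants. The mean of col4a5 was 56.1 ± 34.8 CPM in mutant and 15.7 ± 4.28 CPM in control hearts, with a log2 fold change of 1.83 (SE 0.41, 95% interval 0.90 to 2.77, adjusted p 0.0266). That of col4a6 was 35.5 ± 16.8 CPM in mutant and 11.9 ± 1.52 CPM in control hearts, with 1.58 (SE 0.33, 95% interval 0.82 to 2.34, adjusted p 0.0205). Removing mutant replicate 1 gave log2 fold changes of 1.21 for col4a5 and 1.16 for col4a6, and both calls held. Without both libraries numbered 1 they were 1.02 and 1.17, with adjusted p 0.0309 and 0.0384. Leaving out any 1 control ended both calls, with adjusted p up to 0.0844 for col4a5 and 0.0821 for col4a6. The remaining type 4 chains, col4a3 and COL4A4, known in mammals from the filtration barrier of the kidney, were scarce. col4a3 had 1.68, 3.49 and 3.66 CPM in mutant and 0.489, 2.10 and 1.14 CPM in control hearts, and COL4A4 had 2.69, 4.95 and 5.01 CPM in mutant and 3.06, 0.863 and 3.66 CPM in control hearts. Their 95% intervals, -0.14 to 2.62 for col4a3 and -0.52 to 1.996 for COL4A4, include both no change and changes as large as those of col4a5.

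In the RefSeq gene order of the GRCz12tu assembly, which is not the build of the counts and was used for order only (48 of the 65 genes were found in it by symbol), col4a5 and col4a6 are direct neighbours, as are COL4A1 with COL4A2 and col4a3 with COL4A4. Further neighbours were LAMB2 with lamb2l and COL9A2 with col16a1. Of these pairs col4a5 with col4a6 had both genes called, and LAMB2 with lamb2l had 1. Set against the widely used chains within each library, col4a5 had 20.6, 8.11 and 7.03 in mutant replicates 1 to 3, against 1.61, 3.56 and 3.66 in control replicates 1 to 3, in counts per 100 counts of COL4A1. The corresponding values of col4a6 per 100 counts of COL4A2 were 19.5, 8.36 and 8.67 in mutant replicates 1 to 3, against 3.01, 4.41 and 3.75 in control replicates 1 to 3. Both ratios were higher in every mutant heart than in any control heart. An exact two-sided permutation test over libraries gave p = 0.1 for each, the smallest value that 3 against 3 libraries allow. After Benjamini-Hochberg adjustment over the 7 ratios computed it was 0.14. Of the genes set against a related chain, col4a5, col4a6, lamb2l and col18a1b were already called in these same hearts. The separation of their ratios is therefore no further support for those calls. The ratio of COL4A2 to COL4A1 was 59.3, 58.7 and 68.6 in mutant replicates 1 to 3, against 56.3, 52.8 and 64.4 in control replicates 1 to 3 per 100 counts, with overlap and an exact permutation p of 0.4 (adjusted 0.4).

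**Figure D2:**
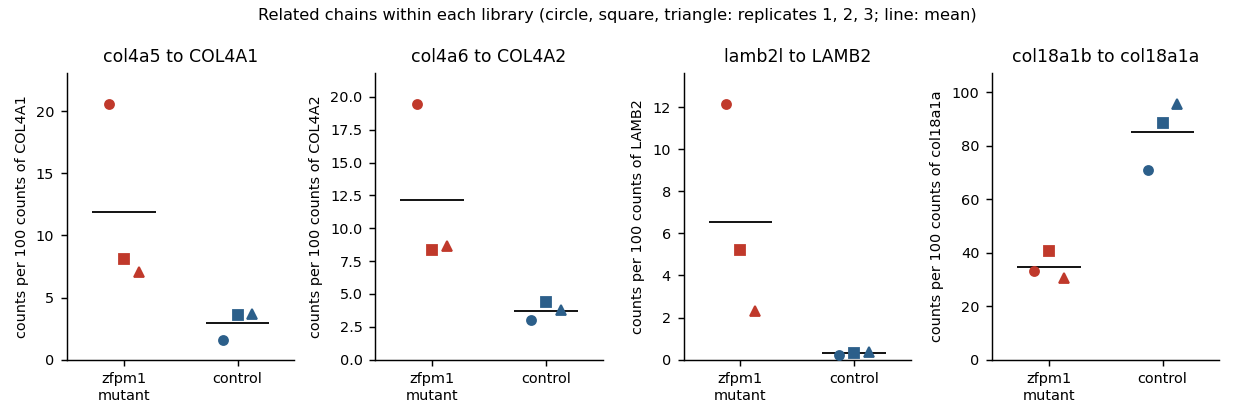
Counts of 1 chain per 100 counts of a related chain in the same library (y axis, each panel with its own scale from 0), for mutant and control hearts, with a point for each library and a line at the mean. The first 3 ratios are higher in every mutant heart, with mutant replicate 1 (circle) highest, and the ratio of col18a1b to col18a1a is lower in every mutant heart.

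Of 13 tested laminin genes 2 rose, lamb2l and lama3, or 15.4%, against 9.43% of all genes called in either direction. lamb2l (ENSDARG00000033950), a paralog of the beta chain gene LAMB2, had 41.5, 16.3 and 8.76 CPM in mutant replicates 1 to 3, against 0.856, 1.11 and 1.26 CPM in control replicates 1 to 3. Control hearts held 26 counts in all and mutant hearts 607, and the lowest mutant was well above the highest control. The mean was 22.2 ± 17.1 CPM in mutant and 1.08 ± 0.205 CPM in control hearts, with a log2 fold change of 4.35 (SE 0.61, 95% interval 2.96 to 5.74, adjusted p 0.00345). It was 3.54 without mutant replicate 1 and 3.40 without both libraries numbered 1, and no single library ended the call. Its neighbour LAMB2 had 342, 312 and 382 CPM in mutant and 368, 328 and 336 CPM in control hearts, a log2 fold change of 0.01 with a 95% interval of -0.42 to 0.43. In counts per 100 counts of LAMB2, lamb2l had 12.1, 5.23 and 2.29 in mutant replicates 1 to 3, against 0.233, 0.338 and 0.375 in control replicates 1 to 3, again with no overlap (exact permutation p = 0.1, adjusted 0.14).

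lama3 (ENSDARG00000071462) encodes an alpha chain that in mammals belongs to the laminin of epithelial attachment. It had 14.7, 3.15 and 1.54 CPM in mutant replicates 1 to 3, against 0, 0 and 0.252 CPM in control replicates 1 to 3. The transcript was nearly absent from control hearts, with 2 counts, both in control replicate 3, against 175 in mutant hearts. The ratio of levels was 75.1, with an exact 95% counting interval of 20.5 to 625, which covers counting error only. The edgeR adjusted p was 0.0187. Without both libraries numbered 1 there were 44 counts in mutant and 2 in control hearts, a ratio of 18.3 (counting interval 4.78 to 156), and the adjusted p was 0.0568. The call was also lost without any 1 control, with adjusted p up to 0.0729. The beta chain gene of that laminin, lamb3, had 2 counts over all 6 hearts and did not reach the minimum of 10.

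The laminin chains of general use did not pass. lamc1, the gamma chain shared by most laminin trimers, had 441, 364 and 473 CPM in mutant replicates 1 to 3, against 475, 348 and 427 CPM in control replicates 1 to 3. The groups covered the same range, and the 95% interval of its log2 fold change ran from -0.45 to 0.52. LAMA5 and lama4, the alpha chains of endothelial basement membranes, had log2 fold changes of 0.18 (95% interval -0.25 to 0.61) and 0.04 (95% interval -0.40 to 0.48). Of the 2 IDs carrying the symbol LAMB1, ENSDARG00000101209 stood at 277 ± 39.4 CPM in mutant and 266 ± 33.4 CPM in control hearts, with an interval of -0.39 to 0.51. The other, ENSDARG00000045524, had 48.2, 51.3 and 55.6 CPM in mutant replicates 1 to 3, against 81.3, 67.3 and 73.9 CPM in control replicates 1 to 3. All its mutant values were below all its control values on the TMM scale, at a log2 fold change of -0.52 (SE 0.17). That separation depends on the TMM scaling. With an adjusted p of 0.0986 this ID was the basement membrane gene closest to the threshold from outside, where col4a5 was the closest inside. The muscle laminin chain lama2, whose loss causes muscular dystrophy in mammals and fish, had 7.95, 8.55 and 8.48 CPM in mutant and 7.46, 1.73 and 6.18 CPM in control hearts. The groups were narrowly apart, with control replicate 2 far below the other libraries, and the adjusted p was 0.420. LAMA1, lamc3 and lamb4 were scarce, with means of 1.25 to 7.98 CPM in mutant and 0.583 to 3.47 CPM in control hearts, and adjusted p from 0.156 to 0.868. The interval of LAMA1, 0.26 to 3.80, reaches sizes near those of lamb2l.

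**Figure D3:**
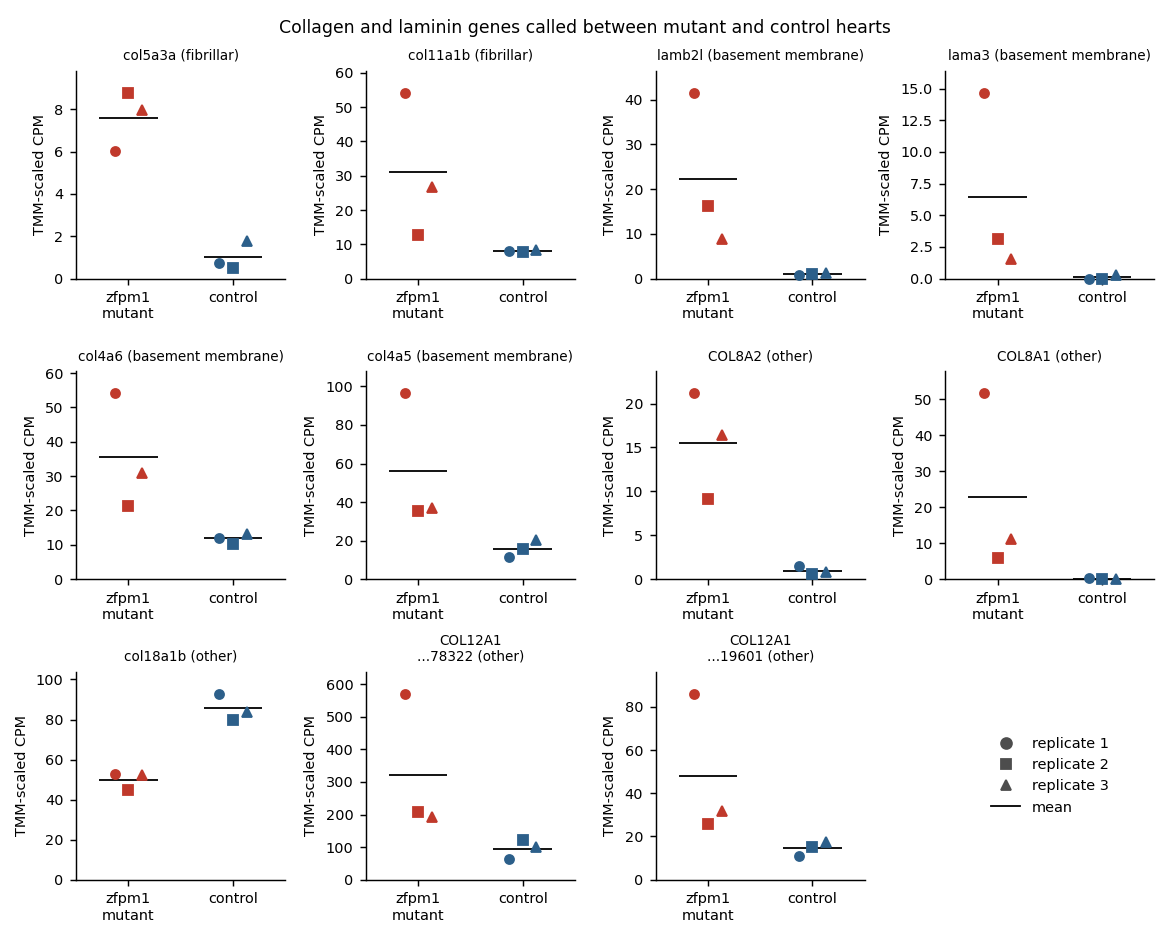
TMM-scaled CPM (y axis, each panel with its own scale from 0) of the 11 called genes in mutant and control hearts, with a point for each library and a line at the mean. The 2 COL12A1 panels give the end of the gene ID. Mutant replicate 1 (circle) is the highest mutant in 9 of the 10 genes that rose, the exception being col5a3a, and col18a1b is lower in all mutants.

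Of 24 tested genes of the other collagens 4 rose and 1 fell, with 6 at an unadjusted p under 0.05. EdgeR called 20.8% of these, against 9.43% of all genes tested. Over all genes 23.6% had an unadjusted p under 0.05, near the share of the 24. The median log2 fold change of the 24 genes was 0.09. Leaving out both libraries numbered 1, where 7.42% of all genes were called, 3 rose and 0 fell. The highest fold changes among them were in type 8, the short-chain collagen that forms sheet-like networks in vessel walls and under the corneal endothelium in mammals. COL8A1 (ENSDARG00000003533) had 51.6, 5.74 and 11.1 CPM in mutant replicates 1 to 3, against 0.245, 0 and 0 CPM in control replicates 1 to 3. Control hearts held 2 counts, both in control replicate 1, and mutant hearts 627. Of the mutant counts 461 were in mutant replicate 1. The ratio of levels was 269 with an exact 95% counting interval of 74.2 to 2227, which covers counting error only. The edgeR log2 fold change was 7.88 (95% interval 5.08 to 10.68), and the adjusted p was 0.00566. Without both libraries numbered 1 there were 166 counts in mutant and 0 in control hearts. Set against a floor of 3 counts over the control group, the ratio of COL8A1 levels was then 46.1. This value takes no account of the spread among libraries. The edgeR adjusted p of that fit was 0.00158. COL8A2 (ENSDARG00000060893), the partner chain, had 21.1, 9.12 and 16.4 CPM in mutant replicates 1 to 3, against 1.47, 0.617 and 0.757 CPM in control replicates 1 to 3. The lowest mutant heart was above the highest control heart by several fold. Its mean was 15.5 ± 6.06 CPM in mutant and 0.947 ± 0.456 CPM in control hearts, with a log2 fold change of 4.01 (SE 0.47, 95% interval 2.95 to 5.08, adjusted p 0.00132), and 4.20 without both libraries numbered 1. Both calls held in all 6 fits with 1 library removed, where the adjusted p reached 0.0404 for COL8A1 and 0.0149 for COL8A2. The further type 8 gene col8a1a held 29 counts in mutant and 13 in control hearts and was not tested. Of the type 10 genes, the collagen of cartilage that turns to bone, COL10A1 (ENSDARG00000054753) had 11.97, 8.89 and 2.99 CPM in mutant and 1.83, 11.8 and 8.58 CPM in control hearts, with overlap. Its second ID, ENSDARG00000101535, held 46 counts in mutant and 11 in control hearts and was not tested.

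The fibril-associated collagens were led by type 12, which links neighbouring fibrils in tissues under tension. The COL12A1 ID ENSDARG00000078322 had 569.8, 207 and 191 CPM in mutant replicates 1 to 3, against 63.2, 122 and 100.89 CPM in control replicates 1 to 3. The second COL12A1 ID, ENSDARG00000019601, had 85.9, 25.8 and 31.9 CPM in mutant and 10.8, 15.2 and 17.4 CPM in control hearts. For both IDs all mutants were above all controls, and mutant replicate 1 was more than 2 times the next library. The mean of the first was 322 ± 214 CPM in mutant and 95.5 ± 30.0 CPM in control hearts, with a log2 fold change of 1.75 (SE 0.44, 95% interval 0.75 to 2.76, adjusted p 0.0397). The second had means of 47.9 ± 33.1 CPM in mutant and 14.4 ± 3.38 CPM in control hearts, with 1.73 (SE 0.44, 95% interval 0.72 to 2.73, adjusted p 0.0427), the largest adjusted p of any called collagen or laminin gene. Without mutant replicate 1 the log2 fold changes came to 1.08 (adjusted p 0.0480) and 1.01 (adjusted p 0.0619). Without both libraries numbered 1 they were 0.85 (adjusted p 0.0232) and 0.84 (adjusted p 0.0741). Both calls were lost without any 1 control, with adjusted p up to 0.146 and 0.122. The other tested fibril-associated genes did not pass. col16a1 had 49.9, 27.4 and 41.5 CPM in mutant and 28.9, 31.4 and 35.8 CPM in control hearts, a log2 fold change of 0.31 (95% interval -0.25 to 0.86). The genes COL14A1, col14a1b, col21a1, COL9A1 and COL9A2 had means under 6 CPM in both groups, log2 fold changes of -0.25 to 0.47 and adjusted p of 0.742 to 0.893. The type 9 gene col9a3, of cartilage, with 70 counts over the 6 hearts, and col19a1 (ENSDARG00000076163) with 34 were not tested.

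**Figure D4:**
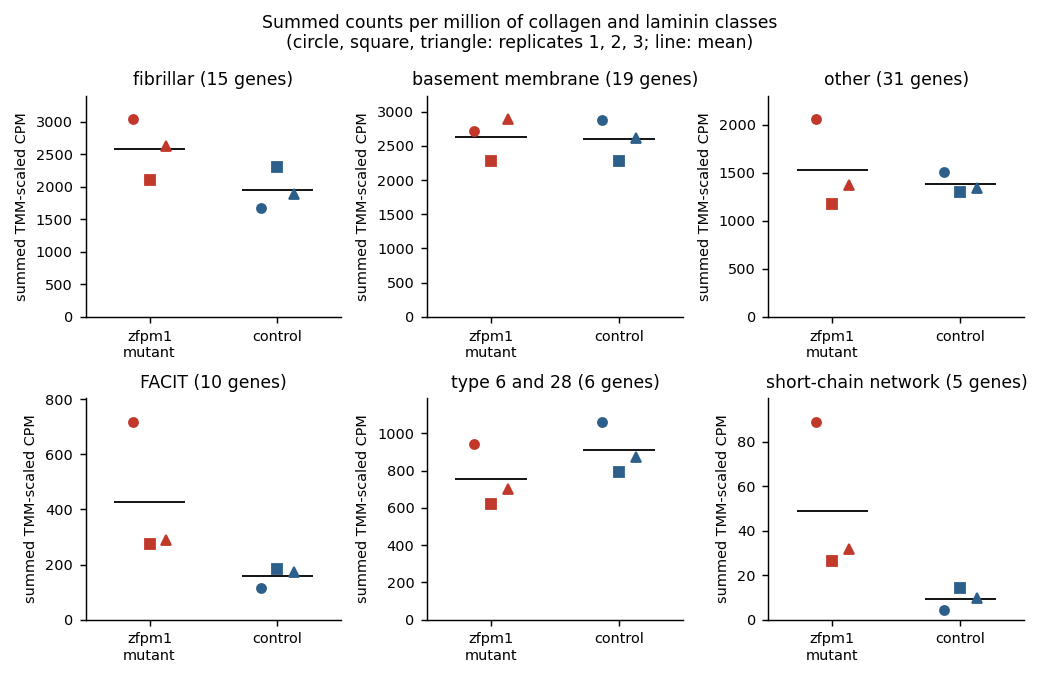
Summed TMM-scaled CPM (y axis, from 0) of the genes of 6 collagen and laminin groups in mutant and control hearts, with a point for each library and a line at the mean. The basement membrane sums cover the same range in both groups, while the fibril-associated (FACIT) and short-chain sums are higher in every mutant heart, with mutant replicate 1 (circle) highest. COL12A1 (ENSDARG00000078322) alone averages 322 of the FACIT mean of 428 CPM in mutant and 95.5 of 157 CPM in control hearts. The only called genes of these 2 sums are the 2 COL12A1 IDs, COL8A1 and COL8A2.

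Collagen type 6, the beaded filament collagen that lies between basement membrane and fibrils, held no gene that passed the test. Of 5 tested genes of types 6 and 28, 0 were called by edgeR or DESeq2 with 1 at an unadjusted p under 0.05. Mutant and control libraries were fully apart for COL6A2 and col6a1, 2 of the 5, where this share was 29.7% over all genes. COL6A2 had 194, 150.3 and 154 CPM in mutant replicates 1 to 3, against 267, 213 and 213 CPM in control replicates 1 to 3. col6a1 had 215, 175 and 169 CPM in mutant and 270.5, 236 and 237 CPM in control hearts. On the TMM scale both were lower in every mutant heart than in any control heart. TMM factors were 1.05 to 1.18 in mutant and 0.844 to 0.970 in control hearts, and this separation depends on that scaling. The log2 fold changes were -0.48 (SE 0.20, 95% interval -0.92 to -0.03, adjusted p 0.184) for COL6A2 and -0.41 (SE 0.19, 95% interval -0.83 to 0.01, adjusted p 0.224) for col6a1. With library size alone as scaling that of col6a1 was -0.15 (edgeR adjusted p 0.702). COL6A2 was the gene of the other collagens nearest to the threshold from outside. COL6A3, the third chain of the type 6 trimer, had 286, 167 and 235 CPM in mutant and 297, 230.3 and 264 CPM in control hearts, with overlap and a log2 fold change of -0.20, which was 0.06 with library size alone as scaling. col6a4a had 246, 130.3 and 139 CPM in mutant and 225, 115 and 158 CPM in control hearts, also with overlap. In counts per 100 counts of COL1A2, col6a1 had 33.6, 39.5 and 30.3 in mutant replicates 1 to 3, against 87.8, 46.1 and 64.2 in control replicates 1 to 3, lower in every mutant heart (exact permutation p = 0.1, adjusted 0.14). COL1A2 had a log2 fold change of 0.47 and was not called, so this ratio cannot tell a lower col6a1 from a higher COL1A2. It is no further support for a fall of col6a1. The type 28 gene col28a2a had an adjusted p of 0.568, and col28a2b, with 17 counts in mutant and 0 in control hearts, was not tested.

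The multiplexins, proteoglycan-like collagens of the basement membrane zone, held the only gene that fell. col18a1b (ENSDARG00000095901), one of the paralogs of the type 18 gene whose product releases endostatin in mammals, had 52.9, 44.6 and 52.5 CPM in mutant replicates 1 to 3, against 92.7, 79.9 and 84.0 CPM in control replicates 1 to 3. The replicates of each group were close together and the groups lay apart. The mean was 49.997 ± 4.70 CPM in mutant and 85.5 ± 6.55 CPM in control hearts, with a log2 fold change of -0.77 (SE 0.17, 95% interval -1.16 to -0.39, adjusted p 0.0241). With library size alone as scaling, which moved the median of all genes from -0.01 to 0.25, it was -0.52 with an adjusted p of 0.121. With that scaling 87.5% of all calls were higher, against 74.4% with TMM. The call was lost without control replicate 1 or 3 or mutant replicate 2 or 3, with adjusted p up to 0.103, and without both libraries numbered 1 (-0.74, adjusted p 0.0515). Its size stayed between -0.83 and -0.69 with 1 library left out. The paralog col18a1a had 160.4, 109 and 172 CPM in mutant and 131, 90.4 and 87.8 CPM in control hearts, with overlap, a log2 fold change of 0.52 (95% interval -0.03 to 1.06) and an adjusted p of 0.238. In counts per 100 counts of col18a1a, col18a1b had 33.0, 40.8 and 30.5 in mutant replicates 1 to 3, against 71.0, 88.4 and 95.7 in control replicates 1 to 3, with no overlap (exact permutation p = 0.1, adjusted 0.14). The third multiplexin gene, col15a1b, had 9.29, 2.81 and 6.84 CPM in mutant and 5.63, 7.28 and 5.04 CPM in control hearts.

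The transmembrane and anchoring fibril collagens were not called. col23a1b, a transmembrane collagen, had 78.9, 78.0 and 112 CPM in mutant replicates 1 to 3, against 96.1, 114 and 100.3 CPM in control replicates 1 to 3. The groups overlapped, with a 95% interval of -0.66 to 0.25. The hemidesmosome collagen genes col17a1a and col17a1b, of epithelial attachment like lama3, had 2.35, 6.75 and 3.27 CPM and 0.671, 1.80 and 1.64 CPM in mutant hearts. In control hearts they had 0.979, 8.75 and 5.04 CPM and 1.96, 2.10 and 3.03 CPM. For col17a1b every mutant heart was below every control heart on the TMM scale, a separation that depends on that scaling. For col17a1a the groups overlapped. Neither passed, with log2 fold changes of -0.26 (95% interval -1.83 to 1.32) and -0.77 (95% interval -1.97 to 0.42). The anchoring fibril gene of skin, col7a1, had 1.119, 1.24 and 0.867 CPM in mutant and 0.122, 1.85 and 1.89 CPM in control hearts. col7a1l (ENSDARG00000069692) had 1.57, 1.35 and 0.578 CPM in mutant and 1.35, 1.36 and 0.504 CPM in control hearts. The untested genes of these types were col23a1a, with 21 counts in mutant and 2 in control hearts, and col7a1l (ENSDARG00000093135), with 8 and 7.

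**Figure D5:**
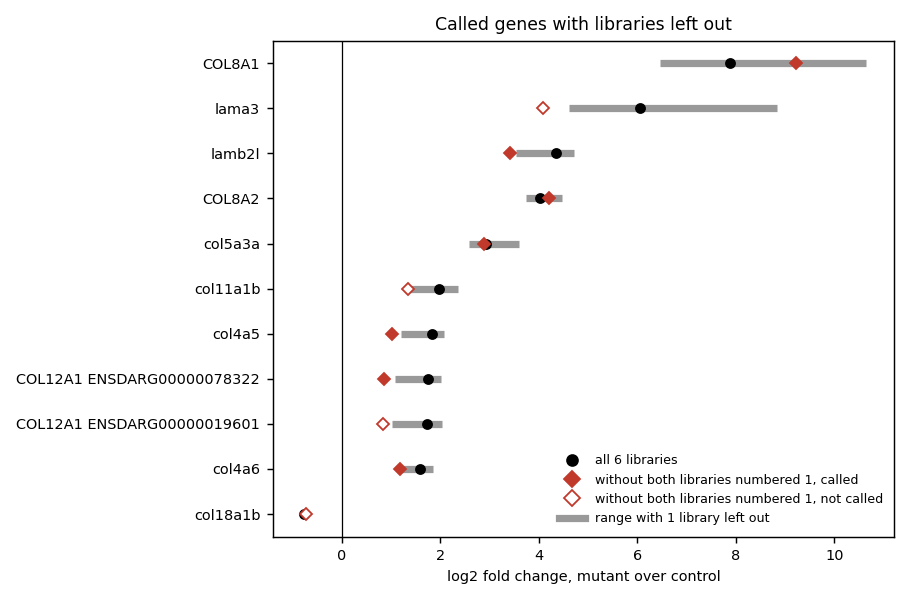
Log2 fold change of mutant over control hearts (x axis) of the 11 called genes with all 6 libraries (black), without both libraries numbered 1 (red, filled where called) and over the 6 fits with 1 library left out (grey bars). No value crosses 0, and 7 of the 11 genes remain called without both libraries numbered 1.

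Other genes of the matrix, from lists of known partners, moved unevenly. Over all genes tested 9.43% were called, against 13.9% of the genes that process collagen, 7.69% of other basement membrane components, 15% of receptors and 24% of other interstitial components. Of 36 tested genes that fold, modify, cleave or cross-link collagen 5 rose and 0 fell by edgeR, while DESeq2 called 7 higher and 1 lower and 10 had an unadjusted p under 0.05. Their median log2 fold change was 0.27. That count depended on the libraries, with 1 higher without control replicate 3, 2 in the fit lacking mutant replicate 1, and 3 in the fits lacking control replicate 1, control replicate 2, mutant replicate 3 or both libraries numbered 1. loxl2a, a lysyl oxidase that cross-links collagen, had 71.6, 43.4 and 48.7 CPM in mutant replicates 1 to 3, against 19.1, 17.4 and 23.96 CPM in control replicates 1 to 3. Its log2 fold change was 1.44 (SE 0.25, adjusted p 0.00806). P4HA1, the catalytic subunit of the enzyme that hydroxylates prolines of collagen, had 41.4, 25.6 and 36.4 CPM in mutant replicates 1 to 3, against 14.8, 12.8 and 16.1 CPM in control replicates 1 to 3. The groups were apart for both genes, and the log2 fold change of P4HA1 was 1.24 (SE 0.24, adjusted p 0.0129). The related genes LOXL2 and p4ha1a were not called, with log2 fold changes of 0.58 and 0.42 (edgeR adjusted p 0.267 and 0.397). SERPINH1 (ENSDARG00000019949), a collagen chaperone named after its value had been seen, rose, and its log2 fold change came to 1.60 (SE 0.43, adjusted p 0.0498). Its call was lost in the fit lacking both libraries numbered 1, at 0.98 (adjusted p 0.131), and a second SERPINH1 ID was not called, at -0.04. The cross-linking enzymes LOXL1 and loxl5b had log2 fold changes of 1.21 (SE 0.28, adjusted p 0.0280) and 3.24 (SE 0.71, adjusted p 0.0233). LOXL1 averaged 185 ± 24.02 CPM in mutant and 79.7 ± 30.6 CPM in control hearts, and loxl5b 6.75 ± 4.64 CPM in mutant and 0.6999 ± 0.374 CPM in control hearts. The call of loxl5b was lost without both libraries numbered 1, at 2.59 (adjusted p 0.0951).

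Of 13 tested genes for other basement membrane components 1 rose and 0 fell by edgeR, 3 had an unadjusted p under 0.05 and DESeq2 called 1 higher and 1 lower, and the median was -0.12. These shares are near those over all genes, 9.43% called and 23.6% at an unadjusted p under 0.05. The gene that rose was fras1, a basement membrane protein of skin and fin, which had 21.1, 18.7 and 22.2 CPM in mutant replicates 1 to 3, against 8.32, 5.92 and 7.95 CPM in control replicates 1 to 3. Its log2 fold change was 1.48 (SE 0.24, adjusted p 0.00587). Of 20 tested receptor genes 3 rose and 0 fell by edgeR and by DESeq2, with 9 at an unadjusted p under 0.05. That count was 0 without control replicate 3, 1 without control replicate 1, mutant replicate 1 or both libraries numbered 1, and 2 without control replicate 2 or mutant replicate 2. Those that rose were 2 IDs with the symbol ITGB1, the integrin beta chain common to collagen and laminin receptors, and itga3a, the alpha chain of a laminin receptor. The first ITGB1 ID, ENSDARG00000053232, had 72.5, 16.996 and 16.1 CPM in mutant replicates 1 to 3, against 3.18, 3.45 and 2.27 CPM in control replicates 1 to 3, and its log2 fold change came to 3.56 (SE 0.62, adjusted p 0.00896). It was 2.54 (adjusted p 0.00272) without both libraries numbered 1. The second, ENSDARG00000022689, averaged 8.36 ± 0.991 CPM in mutant and 2.14 ± 1.16 CPM in control hearts. Its log2 fold change was 1.96 (SE 0.45, adjusted p 0.0275), and the call was lost without both libraries numbered 1, at 1.90 (adjusted p 0.0836). A further ITGB1 ID, ENSDARG00000071863, averaged 95.8 ± 14.04 CPM in mutant and 89.2 ± 17.6 CPM in control hearts and was not called (adjusted p 0.824). itga3a had 30.1, 5.85 and 4.05 CPM in mutant replicates 1 to 3, against 0.122, 0.986 and 1.51 CPM in control replicates 1 to 3. It was highest in mutant replicate 1, where 62.9% of all genes that rose had their highest mutant value. The log2 fold change of itga3a was 1.99 without both libraries numbered 1 (adjusted p 0.0828), against 3.91 with all hearts. The gene with the symbol ITGA3, ENSDARG00000012824, averaged 41.0 ± 9.93 CPM in mutant and 54.5 ± 23.1 CPM in control hearts. It was not called, at a log2 fold change of -0.41 (edgeR adjusted p 0.506).

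Non-collagen components of the interstitial matrix moved in both directions. Of 25 tested genes 3 rose and 3 fell, with 12 at an unadjusted p under 0.05, and 1 rose and 1 fell without control replicate 3. The count of higher genes was 2 without control replicate 2 or mutant replicate 3, 5 with DESeq2 and 6 with library size alone, and that of lower genes 2 without control replicate 2 or mutant replicate 2. The BGN ID ENSDARG00000017884, for the collagen-binding proteoglycan biglycan, had 57.2, 14.7 and 22.2 CPM in mutant replicates 1 to 3, against 0, 0.493 and 0.252 CPM in control replicates 1 to 3. Control hearts were near 0, so that the size of the fold rests on few control counts. The log2 fold change was 6.90 (SE 0.79, adjusted p 0.00121), and 5.59 (adjusted p 0.000121) without both libraries numbered 1. The FN1 ID ENSDARG00000019815, for fibronectin, had 729.6, 389.7 and 444 CPM in mutant replicates 1 to 3, against 159.6, 214 and 186 CPM in control replicates 1 to 3, and its log2 fold change came to 1.48 (SE 0.28, adjusted p 0.0117). Both had their highest value in mutant replicate 1. The remaining gene that rose, ecm1b, was named after its value had been seen, and its log2 fold change came to 0.70 (SE 0.17, adjusted p 0.0361). Its call was lost without both libraries numbered 1, at 0.72 (adjusted p 0.0537). The genes that fell were FMOD and OGN (ENSDARG00000044132), small proteoglycans that bind fibrils, and POSTN (ENSDARG00000104267), periostin, which was also named after its value had been seen. FMOD averaged 6.95 ± 1.14 CPM in mutant and 21.5 ± 5.14 CPM in control hearts, OGN 2.36 ± 1.28 CPM in mutant and 11.1 ± 1.81 CPM in control hearts and POSTN 187 ± 28.1 CPM in mutant and 399 ± 104 CPM in control hearts. Their log2 fold changes were -1.62 (SE 0.27, adjusted p 0.00735) for FMOD, -2.23 (SE 0.42, adjusted p 0.0122) for OGN and -1.09 (SE 0.24, adjusted p 0.0241) for POSTN. All 3 were lower in every mutant heart than in any control heart, where 29.7% of all genes tested did not overlap. Each of the symbols BGN, FN1, OGN and POSTN also stood for a second ID that was not called, with log2 fold changes of 1.11, 0.67, -0.39 and 0.63 in that order. The second POSTN ID, ENSDARG00000043806, was on the opposite side of 0 from the first.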

How the data were processed

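Gene expression was measured by RNA sequencing of 6 heart libraries, 3 per genotype, and 2 libraries labelled as embryo. The authors deposited whole-number counts per gene in a file for each library, with no normalisation. The submitters' processing notes name HTSeq 0.6.1p1, Bowtie2 2.2.3, TopHat2 2.2.1, FastQC 0.11.5 and bcl2fastq, and the build GRCz10. Annotation release and strand setting: not given in the sources used here. The library protocol in the labels describes no step that marks strand, so overlapping genes cannot be told apart. The counter's lines for unassigned reads entered neither library sizes nor tests and held 42.4% to 48.8% (no feature), 11.1% to 21.8% (not unique) and 0.601% to 1.08% (ambiguous) of heart totals.

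A table of gene IDs named 26121 of 31953 IDs. Capital symbols are those of that table, and 1 symbol can stand for several paralogs, whose reads the counting may split. Members, gene lists and tests were chosen with earlier results of these data known. The heart comparison used edgeR 4.0.16 (R 4.3.3): filterByExpr with a minimum count of 10, TMM, the quasi-likelihood F test with group as the only term, and Benjamini-Hochberg adjustment over 16707 genes. Adjusted p-values come from it except where DESeq2 is named. Genes under 0.05 were called. The standard error (SE) is the log2 fold change divided by the root of F, and 95% intervals use the test's degrees of freedom. Values are mean ± SD over 3 libraries. Every called gene is named, with the 2 of highest mean CPM per class and, by smallest adjusted p, up to 4 called genes per list of partners. SERPINH1, POSTN and ecm1b are named beyond that rule. DESeq2 1.42.0 was an alternative, and calls it left without an adjusted p (24 genes) stayed so. The values of 1 tested laminin gene are not reported here, though it is counted.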

Additional observations from a re-analysis of the deposited data

How the results depend on the processing

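Depth limits the scarce chains, since 9 of the 65 genes had too few counts to test, and 27 of the 56 tested had a mean under 10 CPM. With DESeq2's size factors, without a filter, with 1 CPM required in 3 or more libraries and with the DESeq2 test, 10 collagen and laminin genes were higher and 1 lower, as in the fit reported. Over all genes these settings called 9.36%, 6.99%, 9.33% and 13.5% in that order, against 9.43% in the fit reported. With the DESeq2 test the share over all genes was thus closer to the 19.6% of the collagen and laminin genes. With library size alone 10 were higher and 0 lower, where 11.3% of all genes were called. Without both libraries numbered 1, 7 were higher and 0 lower, where 7.42% of all genes were called. With 1 library left out, 4 to 10 were higher and 0 to 1 lower. In those fits 604 to 1302 genes were called in all, or 3.46% to 7.48%. Fits with a library left out hold fewer libraries. The cause of the lost calls was not tested. Some genes that were not called changed sign. With library size alone the log2 fold changes were 0.0633 for COL6A3, 0.0467 for col23a1b, 0.0104 for col17a1a and 0.0037 for col7a1. With 1 library left out, the range was -0.0894 to 0.14 for lamc1, -0.80 to 0.11 for col7a1, -0.23 to 0.43 for col7a1l (ENSDARG00000069692) and -0.79 to 0.45 for col17a1a. Libraries of the 2 genotypes share replicate numbers, and the deviations of same-numbered libraries correlated at 0.10, 0.22 and -0.08 for numbers 1 to 3. Without correlations of differently numbered libraries beside them, these values cannot show whether the numbers pair the libraries. With the replicate block 7 collagen and laminin genes were higher and 1 lower, among 1476 genes called, or 8.83% of all genes tested. In that fit col7a1 had a log2 fold change of 0.0015.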

Other observations

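In the file labelled control embryo, whose total matched that of mutant heart replicate 1, 43 collagen and laminin genes had at least 50 counts. The heart count was 0.4 to 0.6 of the embryo-labelled count in 38 of these, with a median of 0.501, against 0.503 over 14361 genes. In the file labelled mutant embryo, set against control heart replicate 1, the same held for 27 of 32, with a median of 0.503, against 0.504 over 12894 genes. The gene col23a1b stood apart, with 705 counts in mutant heart replicate 1 against 401 in the matching file, a ratio of 1.76, and 786 in control heart replicate 1 against 498, a ratio of 1.58. Among called genes col5a3a had the lowest ratio in mutant heart replicate 1, with 54 counts against 146, or 0.370. These genes were chosen after their values had been seen.

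Collagen and laminin names below the minimum of 10 counts were col9a1b with 4 counts over the 6 hearts, lamb3 with 2, col28a1a with 8, col28a1b with 7 and col19a1 (ENSDARG00000096073) with 2.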
